A study of Mus musculus with 12 samples.

Results

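The splicing factors and hnRNP proteins described here are the 68 genes whose symbols start with Srsf, Hnrnp, U2af, Sf3a or Sf3b, Snrp, or Prpf, followed by a member number or letter, among 36175 genes of the deposited expression table. They were picked by a symbol pattern, with earlier results of these data known. They comprised 11 Srsf, 20 Hnrnp, 2 U2af, 9 Sf3a and Sf3b, 13 Snrp and 13 Prpf genes. Expression was measured by total-RNA sequencing in 12 mice, on B cells of Peyer's patches (PP), the lymphoid follicles of the small intestine. All mice were male, wild-type C57BL/6JHsd animals aged 10 to 12 weeks, and were studied 18 h after surgery. The 6 brain injury mice underwent occlusion of the middle cerebral artery with a filament for 1 h, a model of ischemic stroke. In the 6 sham controls the middle cerebral artery was not occluded: a filament entered only the common carotid artery and did not stay there. Mice of both groups were thus operated on, and according to the methods the surgical protocol included buprenorphine before and carprofen after the operation. B cells were enriched magnetically with a pan B cell kit, a step after which some epithelial and endothelial cells of the intestine were still present according to the methods, and then with CD45 beads. Each mouse gave a library of its own, numbered 1 to 6 within its group.

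A newly transcribed pre-mRNA carries introns that the spliceosome, an assembly of small nuclear ribonucleoproteins (snRNPs) and helper proteins, cuts out. SR proteins (Srsf genes) bind exons and help the machinery to recognise them, whereas heterogeneous nuclear ribonucleoproteins (Hnrnp genes) coat the transcript and often repress or redirect splice site choice. U2af proteins read the end of the intron, the Sm and U1 or U2 specific proteins (Snrp genes) build the snRNPs, SF3a and SF3b (Sf3a and Sf3b genes) hold the U2 snRNP on the branch point, and PRPF proteins (Prpf genes) belong largely to the U4/U6.U5 tri-snRNP and the catalytic steps. In B lineage cells, splicing and the choice of poly(A) site set whether an immunoglobulin transcript encodes the membrane or the secreted form, and Hnrnpll takes part in that choice in plasma cells.

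The values are labelled as normalized TPM, a unit of transcript abundance that takes gene length into account, so that levels of different genes can be compared. However, column totals were not equal. Sham control 6 had the lowest (559570) and sham control 1 the highest (1404340). The read depth behind them is unknown, and no counting interval can be given. B cell markers were measured in every mouse, with a summed level of 8 genes between 1587 and 3207. Of these 8, 0 were higher and 2 lower in brain injury mice at an unadjusted p under 0.05 (limma), and 0 passed after adjustment. Of all genes tested, 4.42% were higher and 1.69% lower. The 8 fold changes were positive for 3 and negative for 5 markers, with a median of -0.26. The 2 called lower were Cr2, a complement receptor, with a log2 fold change of -0.83, and Fcer2a, the low-affinity IgE receptor, with -0.72. Both were lowest in brain injury mouse 5 (47.1 and 48.6), and their part in the results below was not tested. The summed level of 10 epithelial markers ranged from 43.0 to 1728 in sham controls and from 35.6 to 772 in brain injury mice, and sham controls 1 and 2 held the highest sums, at 1728 and 1664. All 6 epithelial markers with enough signal for the test were lower on average in brain injury mice (median log2 fold change -1.62), but none had a p under 0.05 (limma), and their part in the results below was not tested. Endothelial markers (6 genes) summed to between 78.4 and 107, with a similar range in both groups. Only 1 of these 6 reached 1 in every mouse and 3 stayed below 1 in all mice, so the sum rests on few genes. Neutrophil markers (6 genes) summed to at most 3.84.

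Members were tested with limma on log2(value + 0.5) together with all 12590 genes that reached 1 in each of the 12 mice, and 65 of the 68 members passed this filter. The others were Srsf12, at 0.433 on average over 12 mice, Snrpn, at 1.07, and Snrpert, at 0.794. Snrpert is an annotated processed pseudogene on chromosome 2 whose parent is Snrpe, and pseudoalignment can divide reads between near-identical copies, so its value and that of Snrpe are uncertain. Snrpn, which encodes an SmN protein, lies at chr7:59982495-60140219 and shares its locus with Snurf. Of the 68 members, 33 overlap another annotated gene in GRCm38 (GENCODE M21) and 13 overlap one on the same strand. The strandedness of the libraries is not given in the sources used here, so reads of overlapping genes cannot be told apart.

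After Benjamini-Hochberg adjustment over all genes tested, 0 of 65 members passed an adjusted p of 0.05 between brain injury mice and sham controls (limma, adjusted p from 0.716 to 0.996), as was the case for all genes (0%). At an unadjusted p under 0.05, which is what a call means in the following, 4 members were higher in brain injury mice, namely Srsf4, Prpf3, Prpf38b and Hnrnpm, which is 6.15% of the members beside a background of 4.42% of all genes. In the other direction 0 members were called, beside 1.69% of all genes. Values of the groups were fully separated for 0 of 65 members, beside 0.437% of all genes. The median log2 fold change of the members was 0.04, compared with 0.01 for all genes. Of the member fold changes, 39 of 65 were positive (60%), compared with 51.4% of all genes. This direction turned with single mice. Without sham control 6, the median was -0.05 (27 of 65 positive), compared with -0.02 for all genes, and without brain injury mouse 3 it was -0.01 (30 of 65 positive). After rescaling to equal totals, 53 of 65 were positive and the median was 0.16, when that of all genes was 0.13. Members above the median of all genes numbered 39 of 65 both before and after rescaling. In these bulk samples, fewer cells of a type and less RNA per cell cannot be told apart.

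The promoters of these 4 members, and of Snrpf, a Sm ring gene that was far lower in 1 mouse than in all others, are shown because the results turn on these genes. Each window is the 250 bases before the RefSeq start site on GRCm38.p6, 5′ to 3′ on the strand of the gene. Capitals mark matches to any of 4 motifs, searched on both strands. The TATA box, which the general transcription machinery binds, was searched as TATAAA. The GC box, which Sp1 family factors bind, was searched as GGGCGG. For the CCAAT box, the letters in its name were used. The motif of ETS factors was searched as CCGGAAG, and none of these motifs contains another. The windows are chr4:131873387-131873636 on the plus strand for Srsf4, chr3:95855886-95856135 on the minus strand for Prpf3, chr3:108911730-108911979 on the minus strand for Prpf38b, chr17:33685459-33685708 on the minus strand for Hnrnpm and chr10:93589659-93589908 on the minus strand for Snrpf.
Srsf4: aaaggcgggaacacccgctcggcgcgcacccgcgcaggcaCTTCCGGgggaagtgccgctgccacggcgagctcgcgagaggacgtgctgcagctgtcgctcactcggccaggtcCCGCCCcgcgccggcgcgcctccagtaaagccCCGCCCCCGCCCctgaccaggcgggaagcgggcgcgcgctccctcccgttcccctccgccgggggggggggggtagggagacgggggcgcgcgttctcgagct
Prpf3: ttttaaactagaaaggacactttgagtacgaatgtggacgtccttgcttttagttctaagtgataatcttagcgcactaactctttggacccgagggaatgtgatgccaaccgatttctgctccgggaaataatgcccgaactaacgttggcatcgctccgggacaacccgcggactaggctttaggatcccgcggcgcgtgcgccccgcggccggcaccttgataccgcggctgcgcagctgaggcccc
Prpf38b: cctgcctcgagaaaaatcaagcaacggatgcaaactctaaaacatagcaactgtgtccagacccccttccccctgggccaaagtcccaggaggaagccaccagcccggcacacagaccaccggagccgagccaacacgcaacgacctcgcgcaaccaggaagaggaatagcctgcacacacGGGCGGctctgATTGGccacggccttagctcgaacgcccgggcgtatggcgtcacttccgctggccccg
Hnrnpm: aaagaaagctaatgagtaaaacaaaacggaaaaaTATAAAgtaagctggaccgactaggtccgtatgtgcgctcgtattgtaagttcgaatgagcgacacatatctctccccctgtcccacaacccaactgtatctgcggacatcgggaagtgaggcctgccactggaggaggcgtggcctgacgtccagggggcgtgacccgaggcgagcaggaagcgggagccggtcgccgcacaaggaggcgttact
Snrpf: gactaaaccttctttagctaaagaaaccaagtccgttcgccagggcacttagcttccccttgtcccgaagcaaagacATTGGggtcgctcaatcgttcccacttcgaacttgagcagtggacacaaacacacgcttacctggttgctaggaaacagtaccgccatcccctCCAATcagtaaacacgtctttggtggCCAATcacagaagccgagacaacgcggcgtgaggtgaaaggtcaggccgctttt
The window of Srsf4 held GC boxes and an ETS motif, that of Prpf38b a GC box and a CCAAT box, that of Hnrnpm a TATA box and that of Snrpf CCAAT boxes. The Prpf3 window held none of these letters. The Hnrnpm window lies inside the annotated gene (chr17:33646233-33686860), downstream of its annotated 5′ end, so its TATA box belongs to an inner start site. For Prpf38b, the bases after the RefSeq start were not found in an annotated transcript.

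A RefSeq promoter entry was matched for 56 of the 65 tested members. The ETS letters were found in 17 of 56 member promoters (30.4%), compared with 7.05% of all 27025 promoters of the same length. They were most frequent in the Sf3a and Sf3b genes, in 6 of 7 promoters (85.7%). The GC box occurred in 38 of 56 (67.9%) beside 32.9% of all promoters, and in 9 of 10 Srsf promoters. A CCAAT box was present in 27 (48.2%), compared with 34.5%, and TATAAA in 5 (8.93%), compared with 13.0%. The median GC content of the member promoters was 60%, compared with 52% for all promoters. The background took the first entry of each gene, whether or not the gene was expressed here. Member entries were chosen for a start in an annotated transcript where possible, which was found for 45 of 56. The sets thus differ in expression and in the choice of entry, and neither was adjusted for. These matches describe the letters in the windows and do not show binding.

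**Figure D1:**
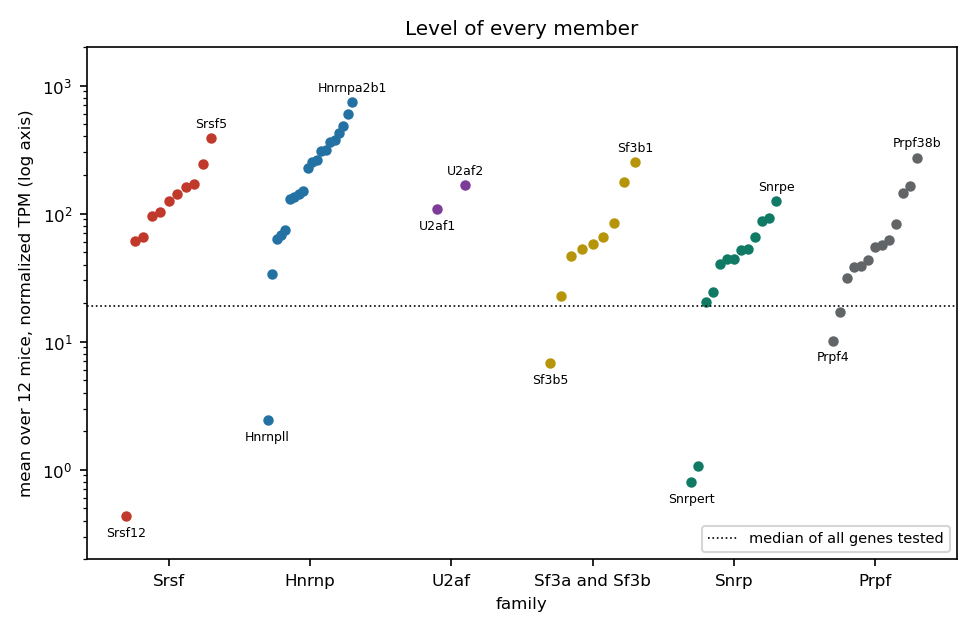
Mean value over 12 mice (normalized TPM, log axis) of each of the 68 members, one point per gene, arranged by family, with the highest and lowest member of each family named. The dotted line marks the median of all genes tested (18.8), and most members lie above it.

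Splicing genes were well expressed in PP B cells. The median level of the tested members was 88.1 normalized TPM, compared with 18.8 for all genes tested. By family, the median level was 239 for Hnrnp, 137 for U2af, 134 for Srsf, 58.1 for Sf3a and Sf3b, 54.5 for Prpf and 51.8 for Snrp genes. The plot of levels by family shows that each family except U2af spans at least an order of magnitude when its lowest member is counted. The most abundant member was Hnrnpa2b1, which binds and transports many transcripts, at 738 over 12 mice. It was followed within their families by Srsf5, an exon-binding SR protein (387), Prpf38b (272), Sf3b1, the SF3b subunit that contacts the branch point (252), U2af2, the polypyrimidine tract reader (166), and Snrpe, a protein of the Sm ring (125). The lowest tested members included Hnrnpll (2.43), Sf3b5, a small SF3b subunit (6.75), and Prpf4, a U4/U6 protein (10.2). Hnrnpll was 6.05 in sham control 1 and between 1.16 and 2.84 in the other 11 mice. The plasma cell marker sum of 7 genes was also highest in sham control 1, at 1487, and lowest in sham control 6, at 295, and its part in the Hnrnpll values was not tested. The 68 members took a share of the column total between 0.621% (sham control 1) and 1.47% (sham control 6), and the 10 most abundant genes took 45.8% and 14.7% of the total in the same mice.

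Libraries on which several results rest are described first. Sham control 6 was below all other sham controls for 40 of 65 members (61.5%), compared with 40.5% of all genes, and above them for 15 (23.1%, compared with 21.2%). The difference varied by family. All 11 tested Snrp genes and 8 of 9 Sf3a and Sf3b genes were lowest in this mouse, and their median difference from the median of the other sham controls was -0.82 and -0.66 on the log2 scale. Most Srsf genes moved the other way, with 6 of 10 highest in sham control 6 and a median difference of 0.40, but 2 of 10 were lowest. Over all genes tested, the median difference was -0.14. The largest differences below 0 were those of Hnrnpa0 (-1.98), Hnrnpab (-1.64), Snrpf (-1.62) and Snrpb (-1.39), the largest above 0 that of Prpf40b (0.82). Sham control 6 also had the lowest column total, the lowest share of the 10 most abundant genes and the lowest epithelial sum of its group, and the part of these values was not tested.

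Brain injury mouse 5 stood apart for single members and for the Srsf genes, of which 6 of 10 were lowest and 3 highest in this mouse. Over all members it was the highest of its group for 14 members and the lowest for 14 others (21.5% each), compared with 25.6% and 32.2% of all genes. Relative to the median of the other brain injury mice, it was higher by 1.03 on the log2 scale for Srsf10, an SR-related repressor of splicing, by 0.90 for Prpf38b and by 0.73 for Sf3b1. The difference was -0.79 for Srsf2, an SR protein that activates exons, and -0.75 for Hnrnpf, which binds G-rich RNA. The summed B cell markers were lowest of all mice in brain injury mouse 5, at 1587. Brain injury mouse 3 lay above the median over 12 mice for 58 of 65 members (median deviation 0.17, compared with 0.01 for all genes), among them all 11 Snrp, all 10 Srsf and 19 of 20 Hnrnp genes. The sum of 8 dividing cell markers was highest of all mice in brain injury mouse 3, at 531, followed by sham control 5, at 494. Its sum of 7 germinal centre markers was the highest of its group, at 335, whereas sham control 5 had 360. The part of these sums was not tested. Results that turn on sham control 6 and brain injury mice 3 and 5 are given below with and without them.

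**Figure D2:**
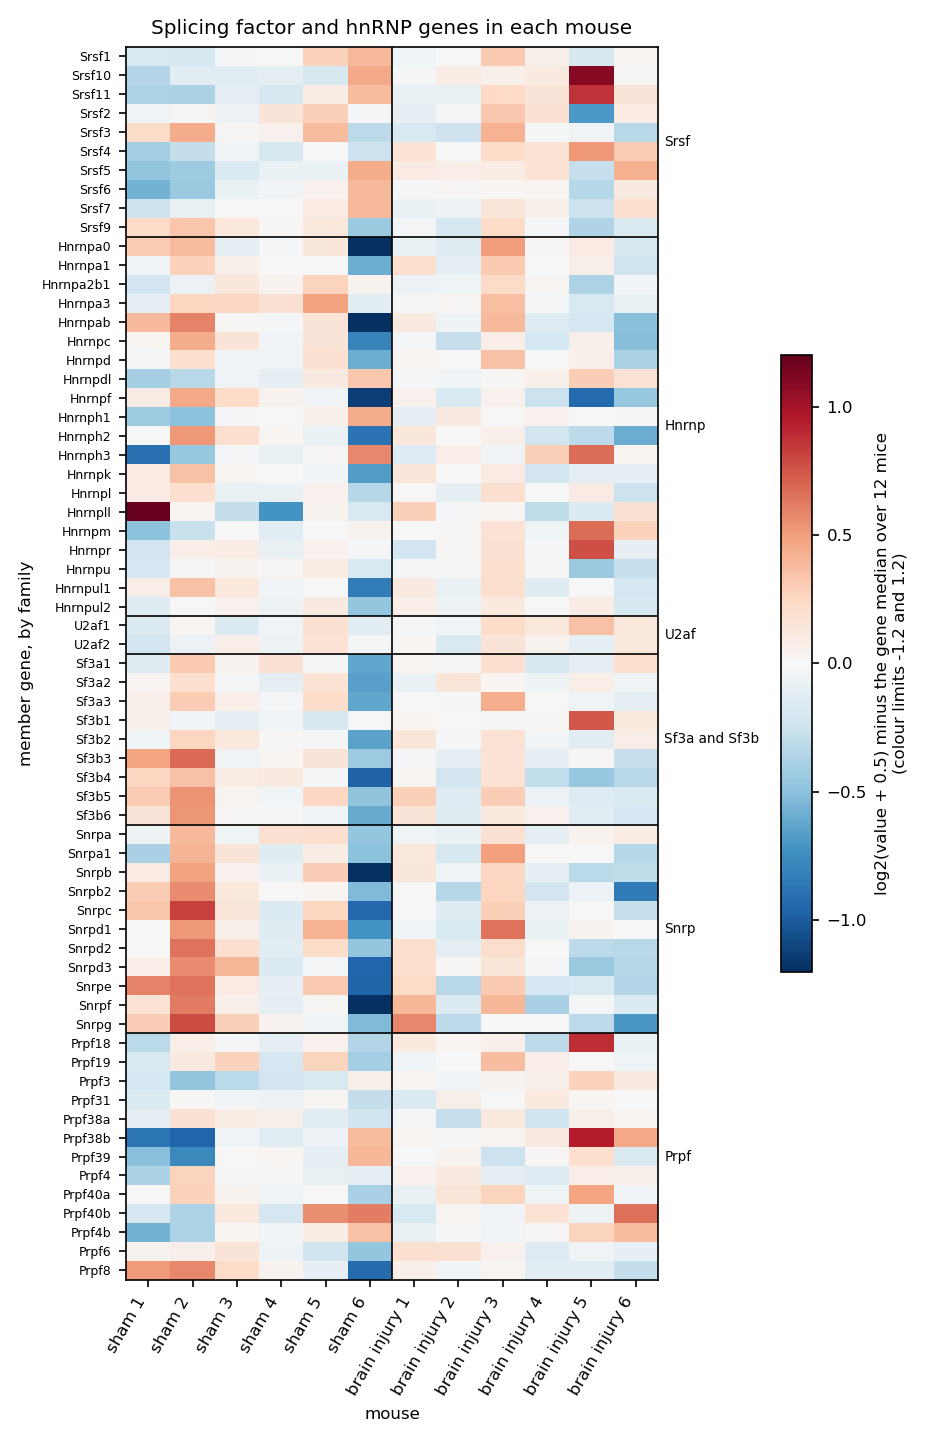
Log2(value + 0.5) of each tested member in each of the 12 mice, minus the median of that gene over all mice, arranged by family. The colour scale is limited to -1.2 and 1.2. The sham 6 column is low for the Snrp genes and 8 of 9 Sf3a and Sf3b genes, and high for 6 of 10 Srsf genes.

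Among the SR proteins, Srsf4 was the member with the smallest p of all members. Srsf4 (chr4:131873617-131901706, plus strand) encodes a large SR protein that binds exonic enhancers, and overlaps another annotated gene on the same strand. Srsf4 was at 47.7 in the lowest sham control, 54.8 at the median and 64.4 in the highest, and at 63.6, 73.2 and 91.8 in the brain injury mice. Of the 6 brain injury mice, 5 lay above every sham control, and brain injury mouse 2 lay within the sham range. The mean of Srsf4 was 56.0 ± 6.24 in the sham and 75.4 ± 9.50 in the brain injury group (SD, n = 6 each). Its log2 fold change was 0.42 ± 0.12 (SE), or 1.34-fold, with a 95% interval from 0.17 to 0.68 (limma, unadjusted p = 0.00303, Benjamini-Hochberg adjusted p = 0.716; exact two-sided permutation p = 0.00433, unadjusted). It was 0.41 without sham control 6 and 0.36 without brain injury mouse 5.

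Srsf11, an SR-related protein that was second in this family, was not called. Its lowest, median and highest values were 175, 204 and 295 in sham controls and 214, 254 and 417 in brain injury mice. The highest sham value was that of mouse 6 and the highest brain injury value that of mouse 5, and the groups overlapped. Srsf11 had a log2 fold change of 0.31 ± 0.18 (SE; limma, adjusted p = 0.793), with an interval from -0.08 to 0.70. This was 0.40, and called, without sham control 6 (when 7.39% of all genes were called higher) and 0.17 without brain injury mouse 5. Of the 10 tested Srsf genes, 5 had a positive and 5 a negative fold change, with a median of 0.03. Without sham control 6, 7 were positive and the median was 0.12, whereas the median was -0.04 without sham control 1 and -0.02 without sham control 2. Without brain injury mouse 5, 8 were positive and the median was 0.09. Srsf10 showed how much single mice carry. It lay between 123 and 145 in sham controls 1 to 5 and at 215 in sham control 6, and between 155 and 169 in 5 brain injury mice and at 335 in brain injury mouse 5. Its log2 fold change was 0.30, with an interval from -0.12 to 0.73 (limma, adjusted p = 0.793), and Srsf10 was not called.

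**Figure D3:**
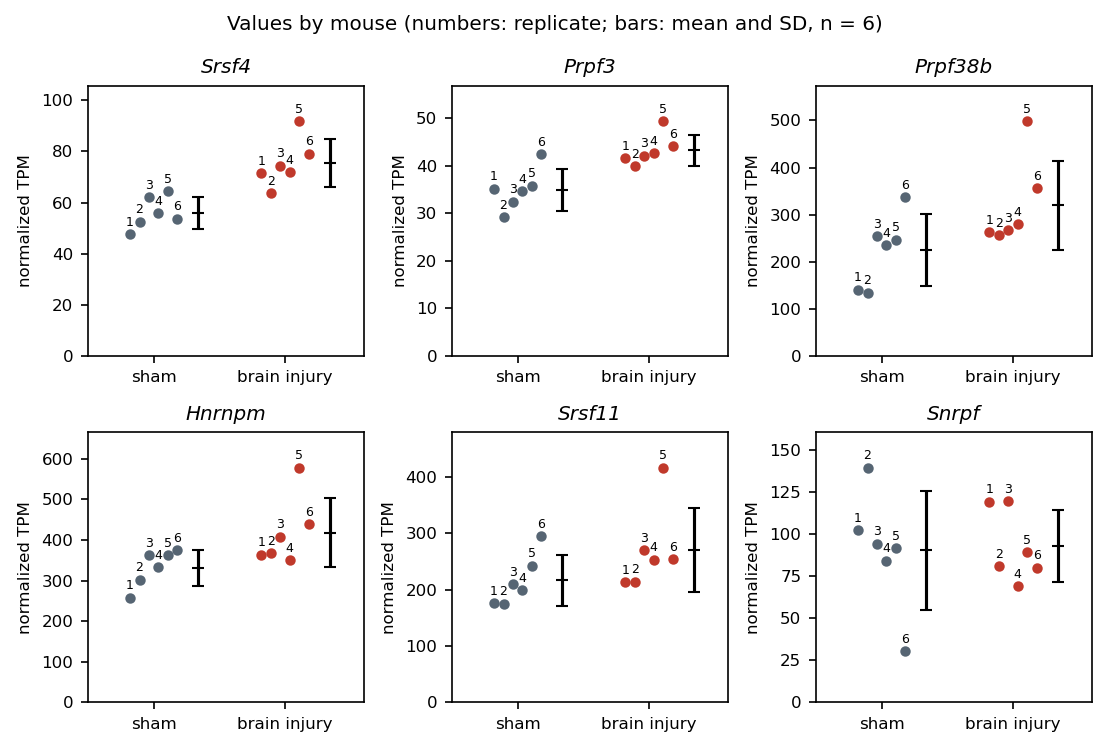
Normalized TPM of 6 members in each mouse, with the replicate number beside each point, and the mean and SD of 6 mice per group. Srsf4 is higher in 5 of 6 brain injury mice than in any sham control. In Prpf3 and Prpf38b, sham 6 alone among the sham controls reaches the brain injury range, and in Snrpf, sham 6 lies far below all other mice.

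Of the 20 hnRNP genes tested, 12 had a positive fold change, the median was 0.02, and Hnrnpm alone was called. Without sham control 6, 6 of 20 were positive and the median was -0.07, and without brain injury mouse 3 it was 8 of 20 and -0.02. Hnrnpm (chr17:33646233-33686860, minus strand) binds GU-rich RNA and often promotes exon skipping, and its gene also overlaps another on the same strand. Its values were 258, 347 and 374 (lowest, median and highest) in sham controls and 350, 387 and 578 in brain injury mice. The groups overlapped in part, since 3 of 6 brain injury mice lay above every sham control, and the highest value was that of brain injury mouse 5. The means were 332 ± 44.6 and 418 ± 85.2 (SD, n = 6 each). For Hnrnpm, the log2 fold change was 0.32 ± 0.14 (SE), with an interval from 0.01 to 0.63 (limma, unadjusted p = 0.0451, adjusted p = 0.791; exact two-sided permutation p = 0.0325, unadjusted). It was 0.36 without sham control 6, and without brain injury mouse 5 it was 0.22 and no longer called. The call of Hnrnpm was also lost without any one of sham controls 1, 2 and 4 and brain injury mice 3 and 6, with log2 fold changes from 0.22 to 0.37 when 1 mouse was left out. Each other scaling that was tried lost the call too, as did an intensity trend and sample quality weights (log2 fold change 0.18).

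Hnrnph3, a relative of the G-run binding hnRNP H proteins, had the second smallest p of the hnRNP genes. Hnrnph3 values, from lowest over median to highest, were 38.0, 68.6 and 106 in sham controls and 63.8, 73.9 and 114 in brain injury mice. The sham range nearly covered that of brain injury mice, since sham control 1 was the lowest and sham control 6 the highest of the group. For Hnrnph3, the log2 fold change was 0.29 ± 0.22 (SE; limma, adjusted p = 0.822). Without sham control 6 it was 0.43 and passed the unadjusted threshold, when 7.39% of all genes were called higher. It was 0.14 without sham control 1 and 0.18 without brain injury mouse 5. At the other end, Hnrnpf had a log2 fold change of -0.23, with an interval from -0.76 to 0.31. Hnrnpf was 239 in sham control 6 and 275 in brain injury mouse 5, compared with 511 to 720 in the other sham controls and 382 to 545 in the other brain injury mice. Hnrnpf and Hnrnpc, an hnRNP core protein that binds uridine tracts, were called lower without sham control 6, when 9.18% of all genes were.

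Of the U2AF heterodimer, U2af1 reads the AG at the end of the intron. U2af1 was at 92.9, 98.8 and 119 (lowest, median and highest) in sham controls, and at 114 (median) and 134 (highest) in brain injury mice. The lowest brain injury mouse lay above 4 of the 6 sham controls. All 6 brain injury mice lay above the sham mean of the log2 values, but only 2 lay above every sham control. U2af1 had a log2 fold change of 0.18 ± 0.11 (SE; limma, adjusted p = 0.793), with an interval from -0.06 to 0.41. U2af2 ranged from 143 to 187 in sham controls and from 148 to 185 in brain injury mice, with a log2 fold change of 0.03 ± 0.11 (SE; limma, adjusted p = 0.962) and an interval from -0.20 to 0.25. The U2af genes also varied least within the groups, with a median SD of 0.14 on the log2 scale, compared with 0.31 for all genes.

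Of the 9 SF3a and SF3b subunits, 0 were called, 5 fold changes were positive and the median was 0.04. Sf3b1 had the smallest p. Sf3b1 was at 210, 234 and 253 (lowest, median and highest) in sham controls and at 236, 244 and 402 in brain injury mice. All brain injury mice but mouse 5 lay between 236 and 260, from within to just above the sham range. Sf3b1 had a log2 fold change of 0.20 ± 0.14 (SE; limma, adjusted p = 0.815), and it was 0.08 without brain injury mouse 5. Sf3b3, a scaffold subunit of SF3b, went in the other direction. Sf3b3 was at 59.6, 86.1 and 130 (lowest, median and highest) in sham controls and 66.4, 77.4 and 90.9 in brain injury mice, so that the brain injury range lay wholly inside the sham range. The log2 fold change of Sf3b3 was -0.20 ± 0.17 (SE; limma, adjusted p = 0.839), with an interval from -0.57 to 0.17. It was -0.32 without sham control 6, not called, and -0.09 without sham control 2. Without sham control 6, 1 of the 9 fold changes was positive and the median was -0.09. Sf3b4, a branch point region binder, was then called lower, when 9.18% of all genes were. Without brain injury mouse 3, 4 of the 9 fold changes were positive and the median was -0.04.

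The snRNP core genes were the family with the largest variation within the groups, with a median SD of 0.42 on the log2 scale, compared with 0.27 for all members and 0.31 for all genes. The plot of family medians shows how they moved together within a mouse. All 11 tested Snrp genes lay above their median over 12 mice in sham control 2 (median deviation 0.57) and in brain injury mouse 3 (0.26), and 11 lay below it in sham control 6 (-0.73). Both extremes of the family were thus sham controls. No Snrp gene was called (0 of 11), 4 of 11 fold changes were positive and the median was -0.06. Without sham control 6, 0 of 11 were positive, the median was -0.24, compared with -0.02 for all genes, and Snrpb2 and Snrpe were called lower (2 of 11), beside 9.18% of all genes in that fit. Without sham control 2 the direction turned, with 7 of 11 positive and a median of 0.05, and this was the 1 of 23 alternatives in which the Snrp median was above that of all genes. After rescaling to equal totals the median was 0.07, when that of all genes was 0.13.

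Snrpb2, a U2 snRNP protein that binds a stem-loop of the U2 RNA, had the smallest p of the family. Snrpb2 was at 16.8, 25.9 and 36.7 (lowest, median and highest) in sham controls and 13.5, 22.2 and 29.5 in brain injury mice. The lowest value of each group was that of mouse 6, and the groups overlapped widely. Snrpb2 had a log2 fold change of -0.28 ± 0.20 (SE; limma, adjusted p = 0.815), with an interval from -0.72 to 0.16, which became -0.40 without sham control 6. Without sham control 2 it was -0.18 and without brain injury mouse 6 it was -0.15. Snrpg, the Sm protein G, followed with values of 34.6, 56.5 and 87.1 in sham controls and 30.7, 45.3 and 75.4 in brain injury mice. The highest values were those of sham control 2 and brain injury mouse 1. For Snrpg, the log2 fold change was -0.26 ± 0.23 (SE; limma, adjusted p = 0.844). It was -0.13 without sham control 2 and -0.15 without brain injury mouse 6, and -0.40 without either sham control 6 or brain injury mouse 1. Snrpf, the Sm protein F, was 30.4 in sham control 6, between 84.2 and 139 in the other sham controls and between 69.0 and 120 in brain injury mice. Its log2 fold change of 0.14 had an interval from -0.50 to 0.78.

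**Figure D4:**
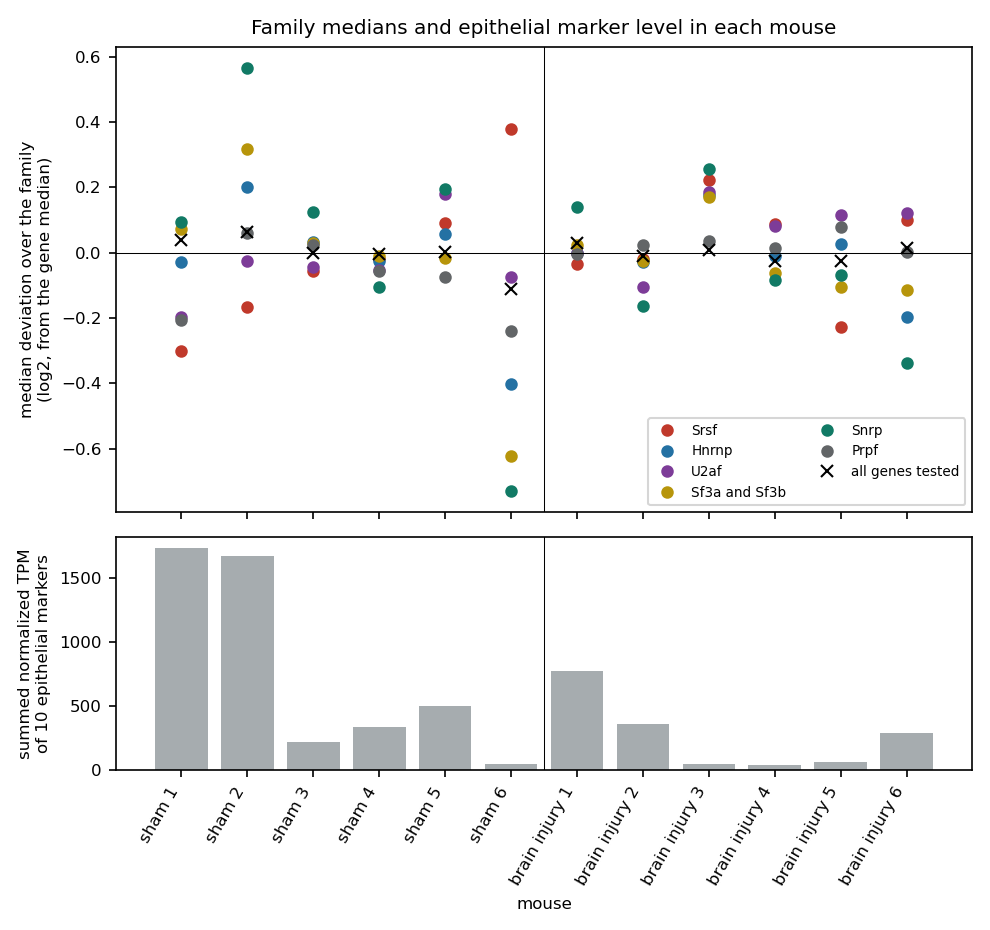
Above, the median over each family of log2(value + 0.5) minus the gene median over 12 mice, for each mouse, with the same for all genes tested as crosses. Below, the summed normalized TPM of 10 epithelial markers in each mouse. The families spread most in sham 2 and sham 6, whereas the crosses stay between -0.11 and 0.06. The epithelial sums are highest in sham 1 (1728) and sham 2 (1664) and lowest in brain injury 4 (35.6) and sham 6 (43.0).

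Of the 13 Prpf genes, 11 had a positive fold change, with a median of 0.11. It stayed above the median of all genes in all 23 alternatives, as did the median of the U2af genes. The replicate block and the intensity trend cannot move fold changes in this balanced design, and fits without 1 mouse share most mice. Only 1 of the 2 U2af genes was above the median of all genes without sham control 1, sham control 2 or brain injury mouse 3, and with no filter. The Prpf median was 0.06 without sham control 6 and 0.04 with sample quality weights. Prpf3 and Prpf38b were called. Prpf3 (chr3:95830124-95855885, minus strand) is a U4/U6 protein required for the tri-snRNP to form. Its lowest, median and highest values were 29.1, 34.9 and 42.4 in sham controls and 39.9, 42.4 and 49.3 in brain injury mice. Sham controls 1 to 5 all lay below every brain injury mouse, and sham control 6 lay within their range. The means were 34.9 ± 4.40 and 43.3 ± 3.27 (SD, n = 6 each). For Prpf3, the log2 fold change was 0.31 ± 0.11 (SE), or 1.24-fold, with an interval from 0.08 to 0.55 (limma, unadjusted p = 0.0134, adjusted p = 0.748; exact two-sided permutation p = 0.00866, unadjusted). It was 0.37 without sham control 6 and 0.27 without brain injury mouse 5. After rescaling to equal totals it was 0.44 and no longer called.

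Prpf38b (chr3:108902805-108911727, minus strand), a relative of the Prpf38a protein of the activated tri-snRNP, had the largest fold change of all members. Prpf38b was at 134, 241 and 337 (lowest, median and highest) in sham controls and 256, 273 and 498 in brain injury mice. Sham controls 1 and 2, which had the highest epithelial sums, were lowest at 141 and 134, and sham control 6 was again the one sham control within the brain injury range. The part of the epithelial sums in these values was not tested. The means were 225 ± 76.6 and 320 ± 94.8 (SD, n = 6 each). Prpf38b had a log2 fold change of 0.54 ± 0.24 (SE), or 1.45-fold, with an interval from 0.02 to 1.06 (limma, unadjusted p = 0.0436, adjusted p = 0.791; exact two-sided permutation p = 0.0736, unadjusted). It was 0.67 without sham control 6, and without brain injury mouse 5 it was 0.40 and no longer called. The call of Prpf38b was also lost without any one of sham controls 1, 2 and 4 and brain injury mice 4 and 6, with log2 fold changes from 0.40 to 0.67 when 1 mouse was left out. Each other filter and scaling that was tried lost the call too, as did sample quality weights (log2 fold change 0.37).

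Other Prpf genes differed less. Prpf8, the core protein of the U5 snRNP, was 42.5 in sham control 6, 75.6 to 121 in the other sham controls and 66.1 to 84.6 in brain injury mice, with a log2 fold change of -0.14 and an interval from -0.60 to 0.32. Prpf8 was called lower without sham control 6, when 9.18% of all genes were. Prpf19, the ubiquitin ligase that gives its name to the Prp19 complex, had a log2 fold change of 0.08, and Prpf31, a U4 snRNP protein with little spread between mice (within-group SD of 0.11), one of 0.09 with an interval from -0.12 to 0.30.

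**Figure D5:**
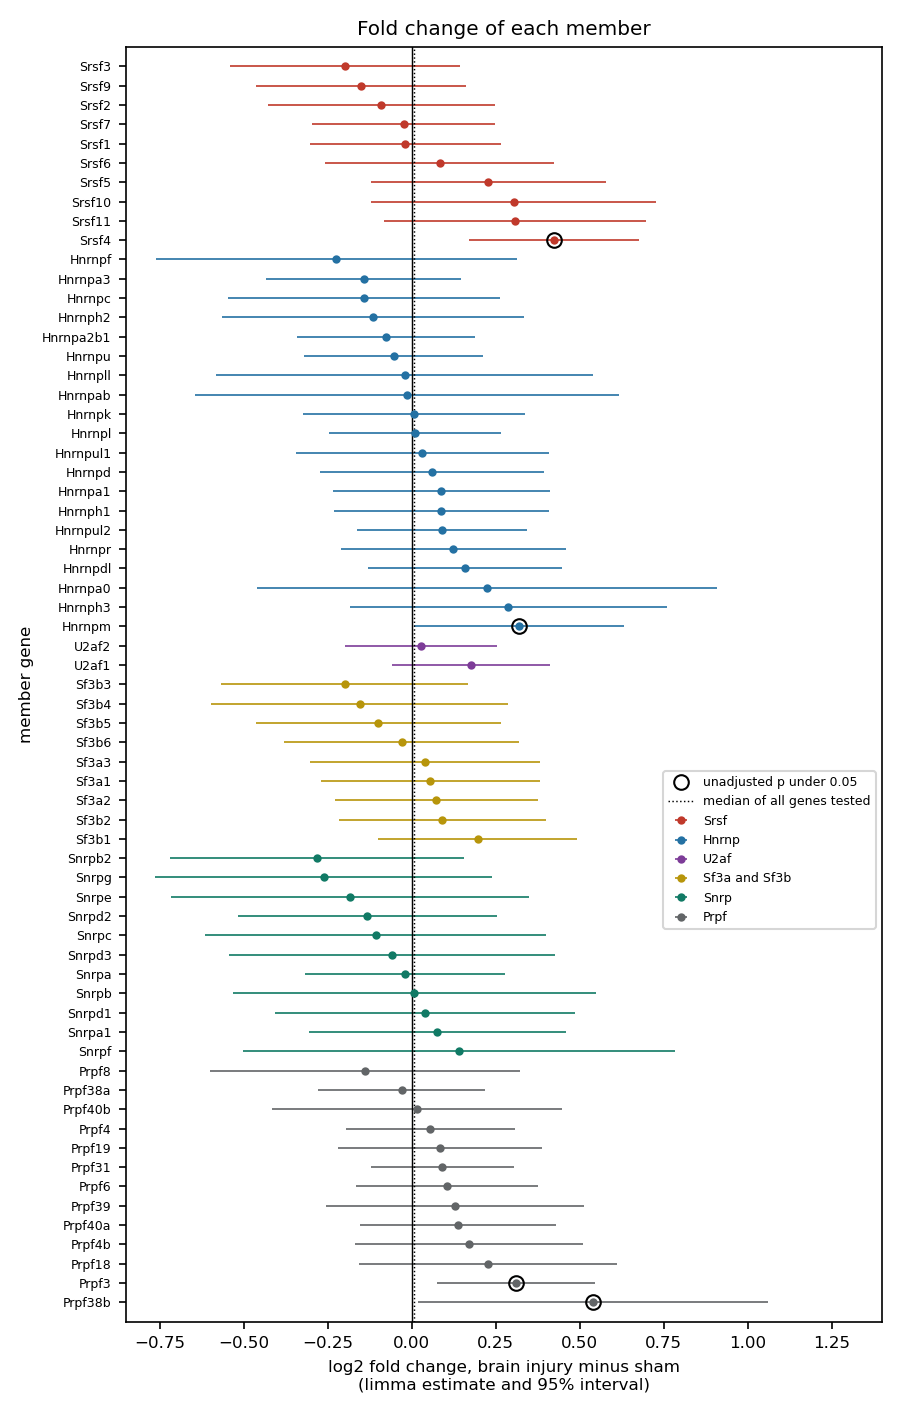
Log2 fold change (brain injury minus sham) of the 65 tested members with the 95% interval of limma, arranged by family and size. Circles mark the 4 members with an unadjusted p under 0.05, all of which are above 0, and the dotted line marks the median of all genes tested.

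Leaving out sham control 6 changed the count of calls most. The calls were then 8 members higher (Prpf3, Hnrnph3, Srsf5, Prpf38b, Srsf10, Srsf4, Srsf11 and Hnrnpm) and 6 lower (Snrpb2, Prpf8, Hnrnpf, Hnrnpc, Sf3b4 and Snrpe), beside 7.39% and 9.18% of all genes. The smallest adjusted p of a member was then 0.227 (limma). When sham control 6 and brain injury mouse 5 were both left out, which was chosen after seeing the data, 6 members were higher and 4 lower, beside 6.39% and 6.40% of all genes tested.

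The members also shared features of annotation that the choice by symbol did not use. A transcript annotated as a target of nonsense-mediated decay (NMD) was present for 33 of 65 tested members (50.8%), compared with 30.1% of 11370 tested coding genes. By family it was 9 of 10 for Srsf, 2 of 2 for U2af, 1 of 9 for Sf3a and Sf3b, 4 of 11 for Snrp, 10 of 20 for Hnrnp and 7 of 13 for Prpf genes. Many SR genes carry a poison exon whose inclusion sends the transcript to NMD, by which SR proteins can limit their own level. A retained-intron transcript was annotated for 49 of 65 members (75.4%), compared with 60.7%. Since the values are sums by gene, a transcript that is not translated adds to the level of its gene, and Srsf4, for which 4 transcripts are annotated, has 1 coding, 2 NMD and 1 retained-intron transcript. Snrp genes have short messages, with a median longest coding mRNA of 1161 bases, compared with 3106.5 for all coding genes. In sham control 6, the median difference from the other sham controls was -0.65 for the 16 members with no annotated retained-intron transcript and -0.39 for the 49 members with at least 1, beside -0.28 and -0.12 for all coding genes. In brain injury mouse 5, the same differences from its group were 0.03 and 0.02 for the members, beside -0.09 and -0.01 for all coding genes. These are descriptions over genes of single libraries, and genes are not independent replicates.

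Genes that work with the members were read from 11 lists of other splicing and NMD genes, of which 161 of 164 were tested. At an unadjusted p under 0.05, 4 were higher (2.48%) and 3 lower (1.86%), beside 4.42% and 1.69% of all genes (limma). After adjustment 0 passed, and the median log2 fold change was 0.04. Cirbp, a cold-inducible RNA-binding protein, had the smallest p, with a log2 fold change of 0.70 ± 0.21 (SE; limma, adjusted p = 0.716). It ranged from 35.0 to 91.7 in sham controls and from 62.2 to 120 in brain injury mice, so that the groups overlapped. Acin1, a protein bound to the exon junction complex, was higher by 0.35 on the log2 scale, as was Scnm1, a minor spliceosome protein (0.35). Ppih, a cyclophilin of the U4/U6 snRNP, had a log2 fold change of -0.33, and Rnpc3, a protein of the minor U11/U12 snRNP, one of -0.22. Their adjusted p was 0.791 (limma).

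In 7 of the 11 lists, 0 genes were called. Among the kinases and partners that phosphorylate or bind SR proteins, 6 of 8 fold changes were positive with a median of 0.08. Of 10 catalytic helicases and step 2 factors, 9 were positive (median 0.17). The LSm proteins, relatives of the Sm proteins that bind U6 RNA or act in mRNA decay, had 1 of 9 positive (median -0.10), and the Sm ring assembly proteins 5 of 16 (median -0.09). Other U1 and U2 proteins had 15 of 20 positive (median 0.10), the Prp19 complex 9 of 16 (median 0.04) and the exon junction complex 6 of 9 (median 0.02). The LSm sum over 10 genes was 252 in sham control 6 and 510 in sham control 2, the lowest and highest of all mice, which are the same mice at the extremes of the Snrp genes.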

How the data were processed

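PP B cells of 12 mice, 6 per group, were sequenced. According to the methods, reads were checked with FastQC 0.11.9, trimmed with Trimmomatic 0.39 and pseudoaligned with kallisto 0.48.0 to Ensembl release 102 on GRCm38, and genes were tested with sleuth 0.30.0 in R 4.1.2. The authors deposited 1 signal value per gene and mouse, labelled as normalized TPM. Column totals differ, and the design of the tests had assumed plain TPM. No counts are given, so depth is unknown.

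From this table, log2(value + 0.5) was tested with limma 3.58.1 in R 4.3.3 over the 12590 genes that reached 1 in each of the 12 mice, without a block, with Benjamini-Hochberg adjustment. With the pseudocount, fold changes of low genes come out too small. The script was tested on simulated data. Single members were also compared by exact two-sided permutation over 924 assignments of the mice, whose smallest p is 0.0022. Members and lists were chosen with earlier results of these data known. Named with their values were members with an unadjusted p under 0.05, the 2 with the smallest p in each family, the highest and lowest by level in each family, and list genes with an unadjusted p under 0.05, at most 3 per list, of which 2 are not reported here. Other members were named after their values were seen. The lists also covered T cell, myeloid, germinal centre and dividing cell markers, with 0 genes called in each. All 8 dividing cell markers had a positive fold change (median 0.10). Positive were also 4 of 7 germinal centre, 5 of 8 tested T cell and 1 of 4 tested myeloid markers. Their part in the results was not tested. The alternatives were other pseudocounts, filters and scalings, a replicate block, an intensity trend, sample quality weights and leaving out each mouse. Gene positions are from GENCODE M21 and promoters from RefSeq GRCm38.p6.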

Additional observations from a re-analysis of the deposited data

Results flagged for a closer look

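In each group of 6 mice, the gap between the most extreme mouse and its neighbour was compared with the range of the group on the log2 scale, and set against Dixon's critical value for 6 samples at 95%, which chance exceeds in about 1 in 20 groups. Of 130 comparisons (65 members in 2 groups), 22 exceeded it (16.9%), compared with 9.75% of all genes. In sham controls there were 13 (20%, compared with 8.27% of all genes) and in brain injury mice 9 (13.8%, compared with 11.2%).

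Sham control 6 was far below the other sham controls for 12 members. Among hnRNP genes, the ratio of gap to range was 0.781 for Hnrnpa0, 0.635 for Hnrnpa1, 0.706 for Hnrnpab, 0.702 for Hnrnpd, 0.689 for Hnrnpf and 0.669 for Hnrnpul1. It was 0.634 for Sf3a2, 0.644 for Sf3a3, 0.654 for Sf3b2 and 0.721 for Sf3b4, and among the Sm genes 0.683 for Snrpb and 0.668 for Snrpf. The same mouse was far above the others for Srsf10, with 0.7.

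Brain injury mouse 5 was far above its group for Srsf10 (0.89), Sf3b1 (0.822), Srsf11 (0.651) and Prpf18 (0.643), and far below it for Srsf6 (0.729). Brain injury mouse 3 was far above its group for Sf3a3 (0.79), Snrpd1 (0.733), Prpf19 (0.697) and Hnrnpa3 (0.642). These flags are not independent, because members that move together in one mouse are flagged together.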

How the results depend on the processing

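Of all genes, 770 were called (72.3% of them higher), and this number was 1768 with no filter, 418 after rescaling to equal totals, 1174 with the replicate block, 1569 with sample quality weights and 1637 without sham control 6 and brain injury mouse 5, an alternative chosen after seeing the data. Leaving out 1 mouse at a time gave 567 to 2098 (without sham control 2 and without sham control 6). The share of higher calls was 83.3% after rescaling, 53.6% after quantile normalization, 55.2% with quality weights and 44.6% without sham control 6. Rescaling moved the median of all genes to 0.13 on the log2 scale. After adjustment, 1 gene was called with a filter on the mean and 1 without sham control 1, and 0 members under any alternative.

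Members called higher numbered 1 after rescaling (Srsf4), 2 after median-of-ratios scaling and 2 after quantile normalization (Prpf3 and Srsf4 in both), beside 2.76%, 3.66% and 3.002% of all genes called higher under these scalings, and 2 to 8 when 1 mouse was left out. They were 2, again Prpf3 and Srsf4, without any one of sham controls 1, 2 and 4 and brain injury mice 5 and 6. In these fits, between 3.13% and 3.76% of all genes were called higher. Without sham control 6, 8 members were called higher, beside 7.39% of all genes. Members called lower numbered 0 to 6 when 1 mouse was left out. They were 6 only without sham control 6, beside 9.18% of all genes. Without that mouse and brain injury mouse 5 they were 4, beside 6.40% of all genes. Srsf4 was called in all 23 alternatives (log2 fold change 0.32 to 0.55, adjusted p 0.236 to 0.991), Prpf3 in 22, and Prpf38b and Hnrnpm in 11 each. U2af2 changed sign without sham control 1 (-0.012) and without brain injury mouse 3 (-0.0016), with a range from -0.012 to 0.066 when 1 mouse was left out. The cause of these changes was not tested.

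The labels do not say whether mice of the same number were paired, and the main fit had no block. Deviations of same-numbered mice from their group means correlated above 0.1 in 4 of 6 pairs (mean 0.218, compared with -0.0414 for other pairs). Not every mouse correlated best with its own number. These values cannot settle whether mice of the same number share a source of variation. With the replicate block, the same 4 members were called higher (6.15%) and 0 lower, beside 6.12% and 3.21% of all genes, with adjusted p of at least 0.392.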
